A study of Mus musculus with 12 samples.

Results

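The Nanog −45 enhancer lies between Dppa3 and Nanog on chromosome 6 of the mouse. The contacts described here are the three-way contacts of this enhancer that stay on its upstream side, where Dppa3, Gdf3 and Apobec1 lie. In a Tri-C experiment, fixed chromatin is digested with DpnII, fragments that are close in the nucleus are ligated, and junctions with a chosen viewpoint are enriched by hybridization to an oligonucleotide. A read that joins the viewpoint to at least 2 further fragments of the same chromosome records a three-way contact, and the tables count such pairs of fragments. Whether a read with more than 2 further fragments adds several pairs is not given in the sources used here. A member is a pair of DpnII fragments whose midpoints both lie in chr6:121663539-122660000 (mm10), from 1 Mb upstream of the viewpoint to the last 10 kb bin border before it, which lies 3.54 kb away. The rule used positions only. It found 3857 distinct pairs, 2448 of them in naive cells with 5342 counts and 1941 of them in primed cells with 3748 counts. The viewpoint had 24352 pairs with 41081 counts in naive cells and 21530 pairs with 32749 counts in primed cells. All 46 tables of the series together had 159167 lines and 241872 counts.

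The cells were J1, an established line of mouse embryonic stem cells with no altered allele named in the sources. Naive cells were grown in serum-free N2B27 medium with 2i, a pair of kinase inhibitors, LIF and bovine serum albumin. Primed cells were derived from them over a week on Geltrex in the same medium without 2i, LIF and the albumin, with Fgf2, Activin A and Knockout Serum Replacement. Each state had 3 biological replicates for the oligonucleotide pool that held this viewpoint, but each deposited table carries 1 total per state. No value below therefore has a replicate error, and no test across replicates was possible. The study checked the states by qRT-PCR and immunostaining of marker genes, which are not analysed here, and a contact assay shows no marker expression.

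Naive embryonic stem cells resemble the inner cell mass before implantation, and primed cells the epiblast after it. Nanog, a homeobox transcription factor of the pluripotency network, shares its neighbourhood with other genes active in early embryos and germ cells. Dppa3, also called Stella, protects the maternal genome against demethylation and marks naive and germ cells, and Gdf3 encodes a ligand of the TGF-beta family. Phc1, farther upstream, encodes a subunit of Polycomb repressive complex 1. Between them lie genes better known from other tissues, among them Apobec1, which edits apolipoprotein B mRNA in the gut.

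The oligonucleotide that defines the viewpoint and the promoters of Apobec1, Rimklb and Phc1 are shown because 10 kb bins or bin pairs at these genes were called different between the states, and because DpnII sites set what the assay can resolve. DpnII cuts at GATC, which is in capitals, and reads the same on both strands. The oligonucleotide is 100 nt long, at chr6:122663539-122663638 of mm10, and is printed as the study listed it. The promoters are RefSeq sequences of GRCm38.p6, the assembly of mm10, each running from 250 bases before to 50 after a transcription start. All 3 lie on the minus strand, at chr6:122602395-122602694 for Apobec1, chr6:122486256-122486555 for Rimklb and chr6:122340178-122340477 for Phc1.
Viewpoint oligonucleotide: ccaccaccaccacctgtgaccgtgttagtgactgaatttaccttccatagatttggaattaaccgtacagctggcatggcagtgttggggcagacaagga
Apobec1 promoter: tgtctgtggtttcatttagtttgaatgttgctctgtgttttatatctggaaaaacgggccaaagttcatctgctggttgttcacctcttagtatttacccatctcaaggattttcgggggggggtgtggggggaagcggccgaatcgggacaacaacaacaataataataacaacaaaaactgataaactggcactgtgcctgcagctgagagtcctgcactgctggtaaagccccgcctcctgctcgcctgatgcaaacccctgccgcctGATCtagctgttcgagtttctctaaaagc
Rimklb promoter: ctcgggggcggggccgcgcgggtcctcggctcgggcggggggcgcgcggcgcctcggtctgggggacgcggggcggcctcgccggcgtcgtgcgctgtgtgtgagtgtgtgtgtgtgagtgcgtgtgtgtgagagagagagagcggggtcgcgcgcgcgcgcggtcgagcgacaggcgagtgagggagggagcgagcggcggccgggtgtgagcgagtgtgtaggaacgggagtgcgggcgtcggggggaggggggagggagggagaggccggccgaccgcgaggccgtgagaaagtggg
Phc1 promoter: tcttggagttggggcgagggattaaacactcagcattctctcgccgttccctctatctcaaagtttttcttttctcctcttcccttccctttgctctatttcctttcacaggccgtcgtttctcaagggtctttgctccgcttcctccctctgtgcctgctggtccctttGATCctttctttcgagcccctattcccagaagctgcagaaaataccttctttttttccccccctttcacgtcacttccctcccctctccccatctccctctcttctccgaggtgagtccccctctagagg
Of the 11 genes examined, 5 had a promoter in the RefSeq table used, and 2 of these 5 promoters held GATC, against 48.0% of the 32851 promoters in the table. The single site in the Apobec1 promoter, at 122602420 to 122602423, ended the fragment seen from 122602269 to 122602419 and started the one from 122602424 to 122603027. The Rimklb promoter has no site, so it lay whole inside 1 fragment of 1412 bases. Fragments had a median length of 262 bases in naive and 265 in primed cells, which is the finest resolution of the counts.

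Most upstream counts joined fragments that are close to each other. The share of counts whose 2 fragments were direct neighbours along the chromosome was 51.9% in naive and 51.8% in primed cells. Neighbours were separated by the 4 bases of the DpnII site in 2758 of 2771 such counts in naive and 1934 of 1942 in primed cells. Such a junction can be DNA that was never cut or a contact too close to distinguish from it, and these possibilities were not tested. A neighbouring pair carried on average 4.53 counts in naive and 3.49 in primed cells, whereas any other pair carried 1.40 and 1.30. Pairs seen once made up 67.0% and 70.7% of the distinct pairs, and the most frequent pair had 42 and 49 counts. For these reasons each ratio is also given, where it matters, without neighbouring fragments and with each distinct pair taken once.

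The states shared most fragments but few pairs. Of the fragments seen upstream, 869 appeared in both states, or 75.7% of those in naive and 73.9% of those in primed cells. Of the pairs, 532 appeared in both, or 21.7% and 27.4%. These shared pairs held 50.3% of the naive and 51.4% of the primed counts, so about as many counts in each state lay on pairs seen in that state alone. Single pairs are therefore sparse, and the comparisons below rest mainly on regions. Most single pairs named below were picked after their values were seen. No share of all pairs called stands beside them, so they describe where counts lie and are not results on their own.

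The upstream side held a slightly larger part of the counts in naive cells. Its 5342 counts were 13.0% of all counts of the viewpoint in naive cells (exact Clopper-Pearson 95% interval 12.7 to 13.3%), and its 3748 counts were 11.4% in primed cells (11.1 to 11.8%). The ratio of the shares, naive over primed, was 1.14 (95% interval 1.09 to 1.18, from the exact split of the 2 counts). All intervals cover counting error only, and they are too narrow if a read can enter several pairs or if copies made by amplification remained, neither of which the tables show. The mirror window of equal length on the Nanog side held 28.6% and 24.2%, for a ratio of 1.18 (1.15 to 1.21). Of the counts in both windows together, the upstream side had 31.3% in naive and 32.1% in primed cells, with a ratio of 0.975 (0.935 to 1.02), so the split between the sides differed by no more than counting error. Unless another denominator is named, shares from here on are of the upstream counts of the state. Taken over all counts of the viewpoint instead, every upstream ratio becomes 1.14 times as large.

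Of the upstream counts, a smaller share lay next to the viewpoint in naive cells, a larger share at intermediate range and a smaller share far away. Counts whose nearer fragment lay within 20 kb of the viewpoint made up 23.5% in naive and 29.7% in primed cells, for a ratio of 0.794 (0.732 to 0.861). From 50 to 100 kb, the range of Gdf3 and Apobec1, the shares were 17.7% and 13.2%, for a ratio of 1.34 (1.20 to 1.496). From 100 to 200 kb, which holds Mfap5 and the 5′ end of Rimklb, they were 22.3% and 18.0%, for a ratio of 1.24 (1.13 to 1.36). The order turned beyond this range, with a ratio of 0.873 (0.779 to 0.980) from 200 to 500 kb, which was 0.992 (0.885 to 1.11) of all counts of the viewpoint. Beyond 500 kb, where the murinoglobulin genes lie, 148 counts or 2.77% in naive stood against 208 counts or 5.55% in primed cells, for a ratio of 0.499 (0.402 to 0.619), which was 0.566 (0.422 to 0.757) without neighbouring fragments and 0.654 (0.505 to 0.845) with each pair once. The share with both fragments over 100 kb away, 37.6% and 37.9%, cuts across these opposite differences and had a ratio of 0.992 (0.927 to 1.06).

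**Figure D1:**
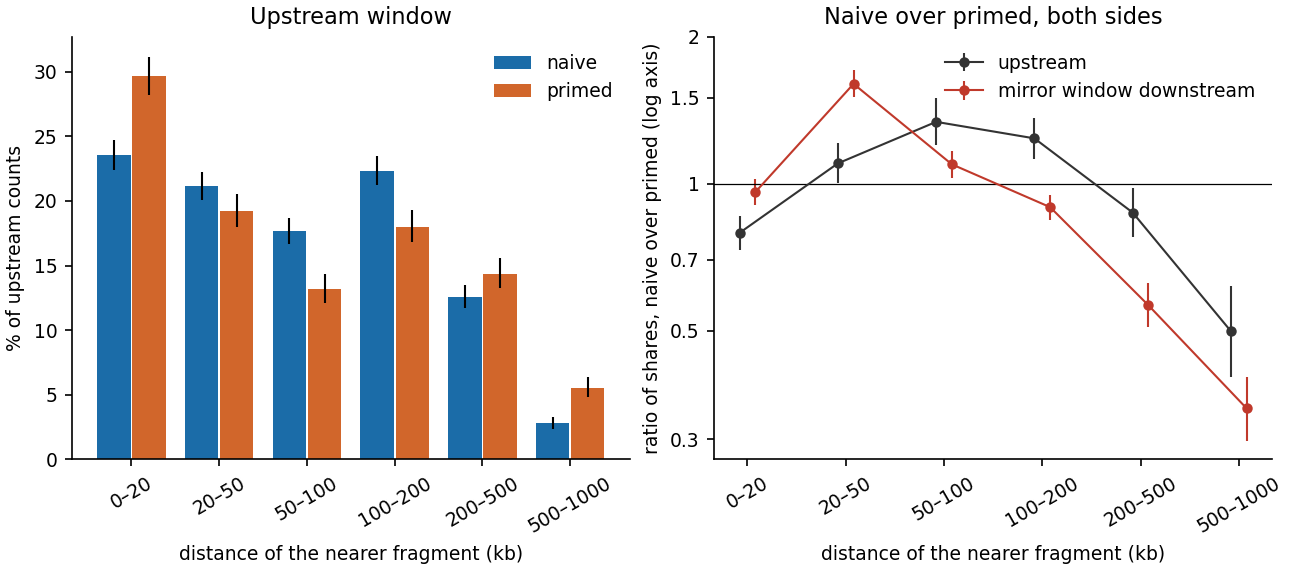
Left, share of upstream counts (percent, bars with exact 95% counting intervals) by the distance of the nearer fragment from the viewpoint (kb) in naive (blue) and primed (orange) cells. Right, the ratio of shares, naive over primed, on a log axis for the upstream side (black) and the mirror window downstream (red), which peaks at 1.34 from 50 to 100 kb upstream and at 1.60 from 20 to 50 kb downstream.

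The mirror window had its highest ratio nearer to the viewpoint. Of its own counts, the ratio was 0.962 (0.904 to 1.02) within 20 kb, 1.60 (1.503 to 1.71) from 20 to 50 kb, and 0.564 (0.508 to 0.626) from 200 to 500 kb. Beyond 500 kb it was 0.347 (0.298 to 0.403), below the 0.499 of the upstream side. From 100 to 200 kb the ratio was below 1 on the downstream side (0.896, 0.845 to 0.9501) and above 1 on the upstream side, and these intervals do not overlap. Separation between the 2 upstream fragments was also shorter in naive cells. Counts over 50 kb apart were 14.1% in naive and 16.2% in primed cells, for a ratio of 0.868 (0.779 to 0.968). With each distinct pair taken once the ratio was 0.997 (0.884 to 1.13), so the difference was not seen once repeats were set aside.

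Among the germ cell and pluripotency genes, Gdf3 had the highest ratio, and Dppa3 was higher in naive cells by less than 1.5-fold. A gene region is the RefSeq span with 1 kb on each side, a count belongs to it if either fragment does, and a region is called where the ratio is at least 1.5-fold away from 1 with an interval that excludes 1. Gdf3 (chr6:122605403-122610087, minus strand) had 141 of the naive counts, 2.64% (2.23 to 3.11%), and 54 of the primed counts, 1.44% (1.08 to 1.88%). Its ratio of 1.83 (1.33 to 2.56) was called higher in naive cells, and it was 1.97 (1.33 to 2.97) without neighbouring fragments. The 10 kb bin that holds its start, most of which lies outside the gene, had a ratio of 0.964 (0.809 to 1.15). Dppa3 (chr6:122626424-122630271, plus strand) had 227 counts, 4.25% (3.72 to 4.83%), in naive and 115 counts, 3.07% (2.54 to 3.67%), in primed cells. Its ratio of 1.39 (1.10 to 1.75) was not called. With the gene span alone the interval held 1 (1.21, 0.901 to 1.64), whereas of all counts of the viewpoint the ratio was 1.57, past the mark. Phc1 had 138 and 77 counts and a ratio of 1.26 (0.945 to 1.68), and the fragment that begins at the GATC site of its promoter had 13 and 3 counts, a ratio of 3.04 (0.835 to 16.6). As background, the same rule called 6.9% of the 58 upstream 10 kb bins with at least 20 counts higher and 22.4% of them lower in naive cells.

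Of the 5 most counted fragments of Gdf3, 3 were called higher in naive cells, and of those of Dppa3, 1 was. Of the 262 upstream fragments with at least 20 counts, 13.4% were called higher and 7.63% lower. The called fragments of Gdf3 and Dppa3 reached 20 counts through their naive counts, so a high ratio is in part built into their being compared. The fragment from 122609594 to 122611406, which spans the 5′ end of Gdf3, had 28 counts in naive and 5 in primed cells, for a ratio of 3.93 (1.498 to 13.03). At Dppa3, the fragment from 122630556 to 122630639, just past the 3′ end of the gene, had 37 and 7 counts, for a ratio of 3.71 (1.63 to 9.86). The neighbouring fragments 122626220 to 122627232 and 122627237 to 122627381, the first of which holds the start of Dppa3, were joined in 17 counts in naive and 1 in primed cells. Such a junction is indistinguishable from uncut DNA of the same place.

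The cytidine deaminase gene Apobec1 took the largest share of any gene examined. Apobec1 (chr6:122577792-122603024, minus strand) had 789 of the upstream counts in naive cells, 14.8% (13.8 to 15.7%), and 423 in primed cells, 11.3% (10.3 to 12.3%). The ratio of 1.31 (1.16 to 1.48) excluded 1 without reaching 1.5-fold. Per 10 kb of region the naive share was 5.42%, below the 7.27% of Dppa3, which lies nearer to the viewpoint, and above the 3.95% of Gdf3.

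Inside Apobec1, 3 fragments close to each other and about 66 kb from the viewpoint held the highest counts. The fragment from 122596985 to 122597185 had 73 counts in naive and 19 in primed cells, for a ratio of 2.70 (1.61 to 4.73), and its neighbour up to 122597288 had 60 and 23, for a ratio of 1.83 (1.11 to 3.10). These neighbours were joined to each other in 37 counts in naive and 11 in primed cells, a junction indistinguishable from uncut DNA. The fragment from 122596845 to 122596956 had 49 and 25 counts, for a ratio of 1.38 (0.833 to 2.32). It was joined to the fragment from 122596985, across a gap of 28 bases, in 22 counts in naive and 1 in primed cells, and this was the most skewed of the 5 most counted pairs of fragments that are not neighbours. Whether a junction across so short a gap is a contact was not tested. The 3 fragments thus share many of their counts, and their ratios are not independent. At the promoter shown above, the fragment ending at the GATC site holds 25 promoter bases and had 47 and 22 counts, for a ratio of 1.499 (0.886 to 2.61). The fragment starting at the site holds 271 promoter bases and had 15 and 8 counts, for a ratio of 1.32 (0.524 to 3.58). Counting error separates neither ratio from 1, and whether they differ from that of the stretch inside the gene was not tested.

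In naive cells a smaller part of the Apobec1 contacts had their second fragment between the gene and the viewpoint. Among the counts of Apobec1, 67.6% in naive and 58.2% in primed cells had both fragments in the region, for a ratio of 1.16 (0.997 to 1.36). The second fragment lay between Apobec1 and the viewpoint in 18.9% and 26.5%, for a ratio of 0.713 (0.554 to 0.920). For Dppa3 the corresponding shares were 21.6% and 31.3%, with a ratio of 0.690 (0.439 to 1.09), and for Gdf3 they were 28.4% and 24.1% (1.18, 0.617 to 2.40). Across the viewpoint, the Nanog region was joined to Dppa3 in 4 counts in naive and 5 in primed cells, to Gdf3 in 4 and 1, and to Apobec1 in 13 and 14.

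**Figure D2:**
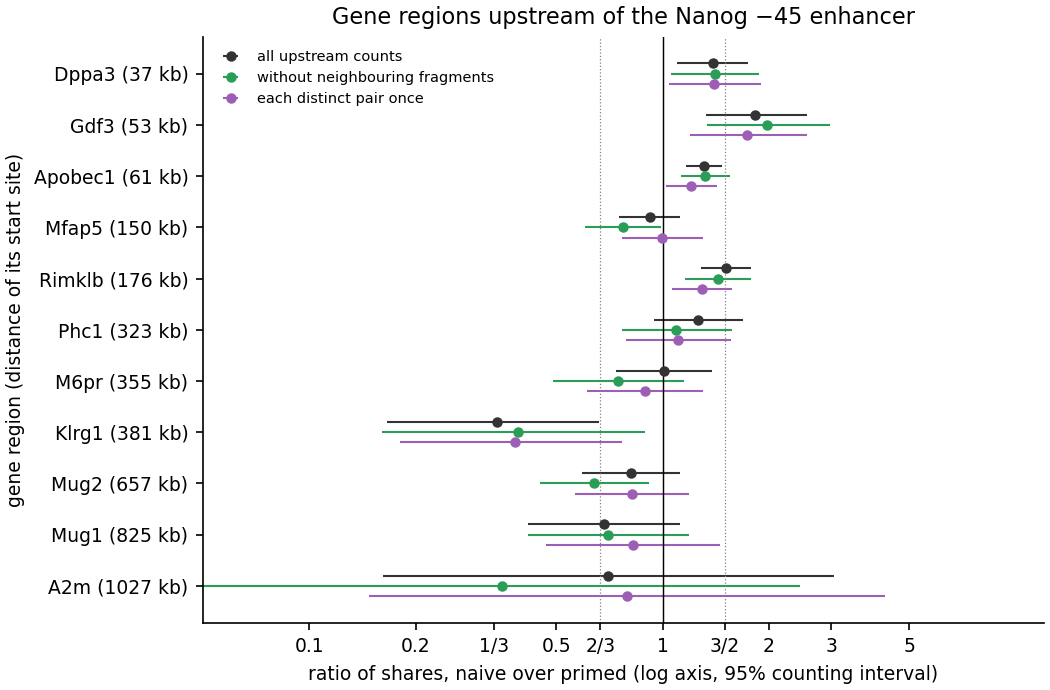
Ratio of shares, naive over primed (log axis), for the 11 gene regions ordered by the distance of their start site from the viewpoint (kb). Points with 95% counting intervals are from all upstream counts (black), without neighbouring fragments (green) and with each distinct pair once (purple), and dotted lines mark 1.5-fold: Gdf3 and Rimklb lie at or above it in black, Klrg1 lies below it.

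Rimklb and Mfap5 lie side by side and had ratios whose intervals do not overlap in all counts but overlap with each pair once. Rimklb, which encodes an ATP-grasp ligase, spans chr6:122447296-122487062 on the minus strand, so its 5′ end faces the viewpoint from 176 kb. It had 469 upstream counts in naive cells, 8.78% (8.03 to 9.57%), and 218 in primed cells, 5.82% (5.09 to 6.61%). The ratio of 1.51 (1.28 to 1.78) was called, and was 1.43 (1.16 to 1.78) without neighbouring fragments and 1.29 (1.06 to 1.57) with each pair once, below the 1.5-fold mark. Mfap5, a component of extracellular microfibrils, had 236 and 180 counts and a ratio of 0.920 (0.754 to 1.12), which was 0.774 (0.605 to 0.992) without neighbouring fragments and 0.998 (0.770 to 1.30) with each pair once.

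The excess at Rimklb covered its 5′ part and the intergenic sequence beyond the start. The bin chr6:122470001-122480000 inside the gene had 196 counts in naive and 52 in primed cells, 3.67% and 1.39%, for a ratio of 2.64 (1.94 to 3.66), the highest of the 26 bins with at least 100 counts. The next bin, up to 122490000, which holds the start of Rimklb, had 213 and 89 counts, for a ratio of 1.68 (1.31 to 2.18). The bin after it, up to 122500000, lies wholly upstream of the gene and had 235 and 97 counts, for a ratio of 1.70 (1.34 to 2.18). All 3 bins were called higher in naive cells, and without neighbouring fragments their ratios were 1.99, 1.88 and 1.56 with intervals above 1. With each pair once they were 1.96 (1.36 to 2.88), 1.31 (0.931 to 1.85) and 1.44 (1.06 to 1.96).

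The next bin toward the viewpoint, chr6:122500001-122510000 near Mfap5, had a ratio below 1. It had 125 counts in naive and 143 in primed cells, 2.34% and 3.82%, for a ratio of 0.613 (0.479 to 0.785), the lowest of the 26 bins. Without neighbouring fragments it was 0.755 (0.550 to 1.04) with 86 and 80 counts, and with each pair once 0.744 (0.537 to 1.03). Of all counts of the viewpoint it was 0.697, short of the mark. Its most counted pairs differed in both directions. A neighbouring pair at 122500259 had 2 counts in naive and 19 in primed cells, another at 122504557 had 4 and 15, and the fragments at 122508011 and 122511096 were joined in 9 and in 0 of 3748, which by the exact interval allows a primed share of up to 0.0984%. Over all upstream counts, the ratio thus stepped from 1.70 to 0.613 between adjacent 10 kb bins. This step became 1.44 to 0.744 with each pair once.

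**Figure D3:**
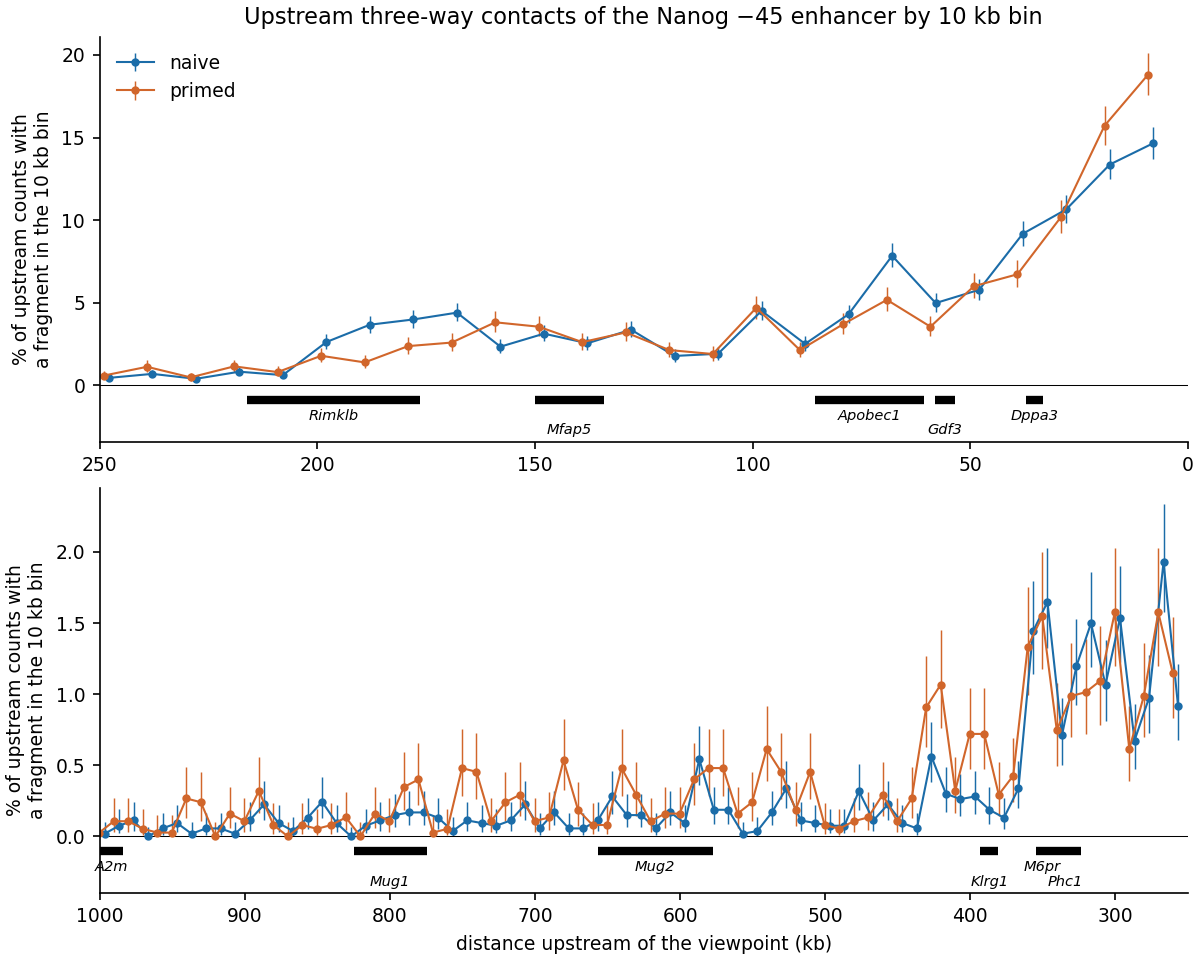
Share of upstream counts with a fragment in each 10 kb bin (percent, points with exact 95% counting intervals) against distance upstream of the viewpoint (kb), in naive (blue) and primed (orange) cells, with the RefSeq spans of the genes examined as black bars. The naive line lies above the primed one at 68.5 kb inside Apobec1 and from 169 to 189 kb around the start of Rimklb, and below it in the bins nearest to the viewpoint and at several bins beyond 380 kb.

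Single fragment pairs close to the start of Rimklb differed in both directions. The fragment pair from 122488203 to 122488308, just upstream of the gene, had 22 counts in naive and 4 in primed cells, for a ratio of 3.86 (1.31 to 15.4). A pair near it that is not of neighbours, joining 122488230 to 122488308 with 122488400 to 122488522, had 17 and 2 counts, for a ratio of 5.96 (1.42 to 53.2). The second of these fragments and its neighbour up to 122489132 went the other way, with 1 count in naive and 9 in primed cells, for a ratio of 0.0780 (0.00178 to 0.563). Farther out, the pair from 122490984 to 122491261 had 20 and 3 counts. The fragment that holds the whole Rimklb promoter shown above had 15 and 5 counts, for a ratio of 2.10 (0.727 to 7.40), which counting error does not separate from 1. It thus took part in 15 of the 213 naive and 5 of the 89 primed counts of its bin.

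Bin pairs around the start of Rimklb were among those called higher in naive cells. Of 745 bin pairs seen, 61 had at least 20 counts and 36 of these were within 1 bin. Of the 61, 9 were called higher in naive cells (14.8%) and 5 lower (8.2%). Of the 9, 6 joined bins of Rimklb and the sequence just beyond it, from 122460001 to 122500000. With a minimum of 50 counts, 31 bin pairs were tested and 6 were called higher. Within the bin from 122470001 there were 110 counts in naive and 24 in primed cells, for a ratio of 3.22 (2.05 to 5.23). This bin was joined to the one before it in 22 and 2 counts and to the one after it in 24 and 4, with ratios of 7.72 (1.90 to 67.7) and 4.21 (1.45 to 16.7). The bins from 122480001 and 122490001 were joined in 21 and 4 counts, for a ratio of 3.68 (1.24 to 14.8). These 3 combinations of different bins reached the minimum of 20 counts through their naive counts, so a high ratio is in part built into their being compared. The remaining 3 called pairs lay within a bin of Phc1, with 42 and 12 counts, and within the Apobec1 bins from 122570001, with 62 and 20, and from 122590001, with 243 and 105. The Phc1 pair also reached the minimum through its naive counts. With each pair once the ratios lay closer to 1 for the within-bin pairs. They fell from 3.22 to 2.11 (1.14 to 4.12) in the bin from 122470001, from 1.76 to 1.09 (0.625 to 1.93) in that from 122480001 and from 2.26 to 1.19 (0.690 to 2.08) in that from 122490001. In the Apobec1 bin from 122570001 the ratio fell from 2.17 to 1.16 (0.577 to 2.41), and in that from 122590001 from 1.62 to 1.37 (0.877 to 2.17). In the Phc1 bin it fell from 2.46 to 1.93 (0.759 to 5.49). Between bins the intervals stayed above 1 for the bin from 122470001 with the one before it (5.55, 1.27 to 50.3) and for the bins from 122480001 and 122490001 (3.96, 1.12 to 21.4), and the interval for the bin from 122470001 with the one after it held 1 (2.78, 0.872 to 11.6). These rest on 14 and 2, 15 and 3, and 14 and 4 distinct pairs, under the minimum of 20, so they were not tested at that weighting.

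**Figure D4:**
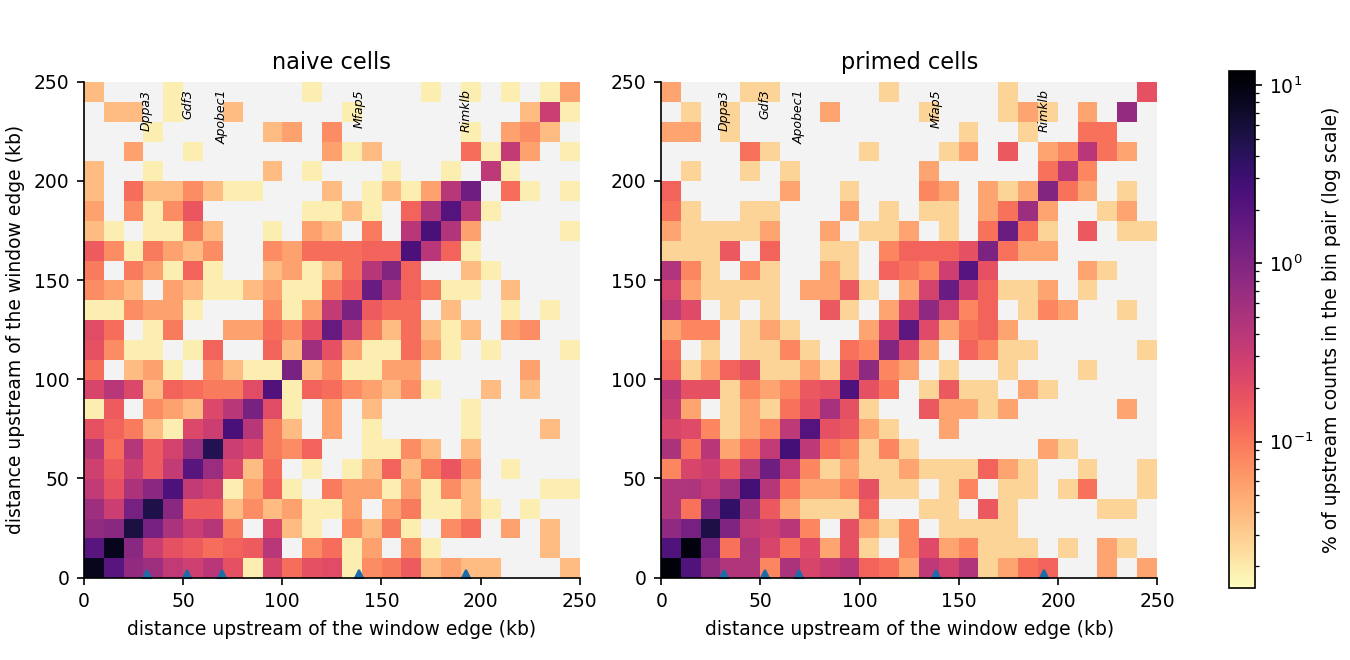
Contact matrices of upstream fragment pairs in naive (left) and primed (right) cells in 10 kb bins, with both axes the distance upstream of the window edge (kb) and colour the percent of upstream counts on a log scale, grey where no count was seen. Gene names stand at gene midpoints, and in naive cells the squares from 160 to 200 kb at Rimklb are darker on and beside the diagonal than in primed cells.

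The lower bin pairs included the bin near Mfap5, which had 51 counts with itself in naive and 77 in primed cells, for a ratio of 0.465 (0.320 to 0.671), and 0.734 (0.409 to 1.31) with each pair once. It was joined to the bin next to the viewpoint in 5 and 17 counts, for a ratio of 0.206 (0.0595 to 0.583), and 0.330 (0.0912 to 1.01) with each pair once. A bin holding the 5′ end of Gdf3 was joined to the one from 122640001 in 10 and 18 counts, for a ratio of 0.390 (0.161 to 0.891), and 0.549 (0.207 to 1.39) with each pair once. Both combinations of different bins reached the minimum of 20 counts mostly through primed cells, so a low ratio is in part built into their being compared. Weighting each pair once left 1 bin pair called higher and 0 lower of the 50 with at least 20 pairs, by the same interval rule. Fewer units also widen the intervals.

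Contacts that join 2 of the genes on the viewpoint were rare. Of the 54 combinations whose regions do not overlap, 27 were seen, in 119 naive and 63 primed counts, and 2 had at least 20 counts. Summed, they had a ratio of 1.33 (0.969 to 1.83), with an interval that holds 1, and a ratio of 1.48 (1.04 to 2.12) with each pair once. Gdf3 and Apobec1 were joined in 28 counts in naive and 9 in primed cells, for a ratio of 2.18 (1.001 to 5.26), which was 1.78 (0.738 to 4.74) with each pair once. Apobec1 and Rimklb were joined in 17 and 5 counts (2.39, 0.845 to 8.27). Both combinations reached 20 counts mainly through naive cells, so a ratio above 1 is in part built into their being singled out. As a comparison, the mean of upstream bin pairs 2 bins apart was used, which is the separation of the region midpoints. Per area, Gdf3 with Apobec1 stood 7.61-fold above it in naive and 4.17-fold in primed cells. This mean is taken over the whole window, where coverage falls with distance from the viewpoint, so genes near the viewpoint stand above it in any case. The regions themselves nearly meet, with Apobec1 ending at 122604024 and Gdf3 starting at 122604403. Junctions of close fragments can thus enter this combination but not bin pairs 2 bins apart, so its excess is in part built in. Dppa3 with Gdf3 had 3 and 1 counts, and Dppa3 with Apobec1 11 and 7, too few to separate the states at this depth.

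The receptor genes M6pr and Klrg1 lie on the far side of Phc1 and had ratios whose intervals do not overlap in all counts, but overlap with each pair once and without neighbouring fragments. M6pr, the cation-dependent mannose 6-phosphate receptor, had 102 counts in naive and 71 in primed cells and a ratio of 1.01 (0.737 to 1.38). Klrg1, an inhibitory receptor of natural killer and T cells, had 14 and 29 counts, 0.262% and 0.774%, for a ratio of 0.339 (0.165 to 0.662) that was called lower in naive cells. Without pairs under 2 kb apart it was 0.497 (0.1998 to 1.18), with an interval that holds 1. The regions of M6pr and Phc1, with 1 kb on each side, overlap by 1950 bases, so their counts are not independent. A pair of bins at and beside Klrg1 were called lower. The bin from 122270001 had 10 and 27 counts (0.260, 0.112 to 0.554). The bin from 122260001 had 15 and 27 counts (0.390, 0.193 to 0.759). Both bins reached the minimum for a bin through their primed counts, so a low ratio is in part built into their being tested. The bin that holds the start of Klrg1 had 7 and 11 counts, too few for the minimum, and an interval that holds 1 (0.446, 0.147 to 1.26).

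The alpha-2-macroglobulin family, protease inhibitors of plasma, lay at the far end with few counts. Mug2 had 87 counts in naive and 75 in primed cells, for a ratio of 0.814 (0.591 to 1.12), which was 0.641 (0.448 to 0.916) without neighbouring fragments, 0.819 (0.565 to 1.19) with each pair once and 1.40 (0.2997 to 8.67) in the bin of its start. Mug1 had 35 and 36, for a ratio of 0.682 (0.416 to 1.12), and A2m, of which the window holds a part, had 5 and 5. Mug1, Mug2 and the Mug pseudogenes are related in sequence, and whether reads were misplaced among them was not tested, which also touches the share beyond 500 kb.

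Of the 13 bins called lower in naive cells, 11 lay beyond 250 kb, where 33 of the 58 tested bins lie, and the others were the bin near Mfap5 and 1 at 239 kb, while the 4 called higher lay between 68.5 and 189 kb. Each of the 11 beyond 250 kb had under 20 naive counts, so a low ratio is in part built into its being tested. With all counts of the viewpoint as denominator the numbers of called bins were 9 lower and 9 higher. Beyond 500 kb, where a bin with few naive counts reaches 20 only through primed cells, the naive share was lower in 32 of the 50 bins with any count and higher in 18. Of the lower bins, 9 of 13 kept their direction without neighbouring fragments, 6 of them with an interval below 1, and 5 had such an interval with each pair once. The 3 bins from 121910001, 121920001 and 121980001, near Mug4-ps and Mug2, did not keep it, since 15, 15 and 17 of their 18, 17 and 20 primed counts lay on a single pair, the same one for the first of these bins and its neighbour. The bin at 239 kb did not keep it either, with a ratio of 1.14 without neighbouring fragments. The bin from 122240001 in Mug-ps1 kept it, with 16 naive and 40 primed counts and a ratio of 0.281 (0.147 to 0.512). Of these counts 16 and 38 were not between neighbours, for a ratio of 0.296 (0.154 to 0.543). Lower bins were not particular to the upstream side. In the mirror window, of its own counts, 48 of 93 tested bins (51.6%) were called lower, against 22.4% upstream.

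**Figure D5:**
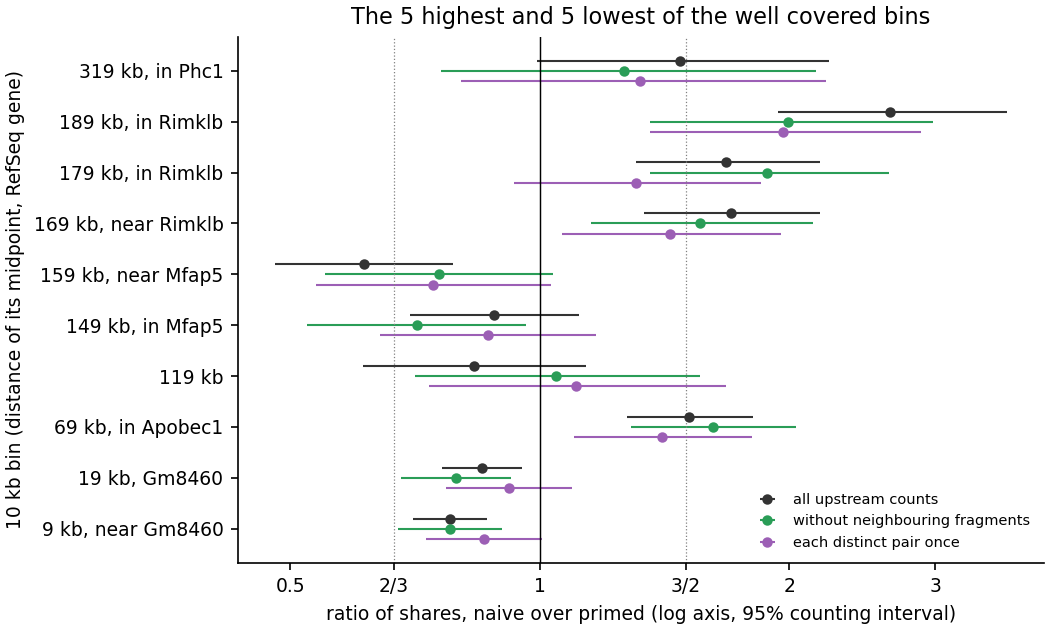
Ratio of shares, naive over primed (log axis), for the 5 highest and 5 lowest of the 26 bins with at least 100 counts, ordered by distance of the bin midpoint from the viewpoint. Colours are as for the gene regions and bars are 95% counting intervals, and the points of the 3 bins at 169 to 189 kb lie above 1 in each weighting, while the bin at 159 kb lies below it.

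Next to the viewpoint the primed share was higher by counts. The bin from 122650001 to 122660000 had 783 counts in naive and 705 in primed cells, 14.7% and 18.8%, for a ratio of 0.779 (0.703 to 0.864), and the bin before it 714 and 589 (0.851, 0.762 to 0.9502). With each pair once both intervals held 1, at ratios of 0.857 (0.730 to 1.01) and 0.917 (0.769 to 1.09). The 10 most counted fragments all lay here, from 3.66 to 15.8 kb from the viewpoint and near the pseudogene Gm8460. All 10 had a ratio below 1, and 2 were called lower in naive cells, against 7.63% of the 262 fragments with at least 20 counts. One was the fragment from 122647709 to 122647821, with 56 naive and 100 primed counts, for a ratio of 0.393 (0.278 to 0.550). The other, from 122651777 to 122651904, had 71 and 78 (0.639, 0.456 to 0.892). The most counted pair, 122657346 to 122657675, had 41 and 49 counts, for a ratio of 0.587 (0.378 to 0.907). An exception among frequent pairs was 122645540 to 122645769, which had 39 counts in naive and 10 in primed cells, for a ratio of 2.74 (1.34 to 6.15).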

How the data were processed

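Tri-C libraries of naive and primed J1 cells, 3 biological replicates per state and oligonucleotide pool, were sequenced by the authors as paired ends, processed with CapCruncher in capture mode against mm10 and passed to scripts of their own for reads with 2 or more cis reporters. They deposited whole-number counts of fragment pairs for each viewpoint and state, not normalized and without a replicate, so replicates were taken as pooled. CapCruncher's version, its aligner and how duplicates were treated could not be read from the labels or methods. Fragments were placed by their midpoints, and fragment ends were checked against GATC sites of the RefSeq promoters. Shares had exact Clopper-Pearson 95% intervals, and ratios had the interval of the exact conditional split of the 2 counts. Bins of 10 kb, bin pairs, fragments and gene regions (RefSeq span of GRCm38.p6 with 1 kb on each side) were called where the ratio was at least 1.5-fold from 1 and the interval excluded 1. Bins, bin pairs and fragments needed 20 counts over both states. Named were 11 genes in 5 groups (a further listed gene is not reported here), the 5 highest and 5 lowest bins with at least 100 counts and bin pairs with at least 50, the 10 most counted fragments and the 5 most counted pairs. Further fragments and pairs were named after their values were seen, as were the called bins and bin pairs. The members and lists were chosen with earlier results of these data known. Depth was 5342 upstream counts in naive and 3748 in primed cells. The intervals and calls were tested on simulated data with independent counts, which do not cover reads in several pairs or amplified copies. Python 3.11.15, numpy 2.4.6, pandas 2.3.3 and scipy 1.17.1 were used, with plots by matplotlib 3.10.9. Alternatives changed the denominator, the weight of repeated pairs, neighbouring fragments, the ends of the window, gene regions, bins, minimum and thresholds. One alternative, leaving out pairs under 2 kb apart, was added after seeing the data.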

Additional observations from a re-analysis of the deposited data

How the results depend on the processing

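No paired analysis was possible because the deposited tables carry 1 total per state and no replicate. Of the ratios for single gene regions and gene pairs, 106 kept their side of the interval rule over the alternatives, of which 6 (of M6pr, Mfap5 and Mug2, with intervals that hold 1) crossed 1, while 4 gained a side and 7 lost it. Gdf3 turned to 0.964 where the 10 kb bin of its start stood for the region, and Gdf3 with Apobec1 to 0.789. The ratio at Apobec1 stayed between 1.20 and 1.49, and that at Rimklb between 1.29 and 2.02. The upstream share turned from 1.14 to 0.966 with counts within 1 Mb on either side as denominator. The number of gene regions called higher, 2, became 1 with this denominator, with each pair once, without the bin next to the viewpoint, without neighbouring fragments, with 5 kb on each side of genes, with the start bin and without pairs under 2 kb apart, and 3 with all counts of the viewpoint as denominator. The number called lower, 1, became 2 without neighbouring fragments and 0 within 200 kb or without pairs under 2 kb apart.

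The main setting tested 58 bins and 61 bin pairs, and the number tested changed with the setting. With each pair once, 48 bins and 50 bin pairs were tested. Bins called higher then went from 4 to 1 and lower from 13 to 4, and bin pairs from 9 to 1 and from 5 to 0. Lower bins and lower bin pairs became 6 of 49 and 3 of 44 without neighbouring fragments, and 3 of 36 and 1 of 31 with a minimum of 50 counts. With all counts as denominator, higher bins became 9 and lower bins 9, and bin pairs 17 higher and 4 lower. In 5 kb bins, higher bins became 10 of 83 and lower bin pairs 8 of 76. In 20 kb bins, higher bins became 2 of 40 and higher bin pairs 5 of 48. Without pairs under 2 kb apart, lower bins became 4 of 47, and of 28 bin pairs 3 were higher and 3 lower. The share over 50 kb apart had a ratio of 0.997 with each pair once, 0.904 without the bin next to the viewpoint and 0.923 without pairs under 2 kb apart, each with an interval that holds 1. The share with both fragments far from the viewpoint had a ratio of 1.08 beyond 50 kb and 0.769 beyond 200 kb, in place of 0.992 beyond 100 kb, which follows from the opposite differences near and far. The summed gene pairs, with a ratio of 1.33 and an interval that holds 1, had intervals above 1 at ratios of 1.51 with all counts as denominator, 1.48 with each pair once, 1.40 with 5 kb on each side of genes and 1.41 without pairs under 2 kb apart. Apart from these and the construction of the settings (fewer pairs tested), the cause of a changed count was not tested. Depth limits single pairs most, since most were seen once.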
